A study of Mus musculus with 568 samples.

Results

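The 9 genes described here encode the enzymes, carriers and receptors that set how a cell makes, holds, reads and clears retinoic acid. They were taken as a named list, of 16335 genes in the bulk RNA-seq table and 15718 in the single-cell table. The turnover enzymes are Cyp26a1 and Cyp26b1, the binding proteins Crabp1 and Crabp2, the receptors Rara, Rarb, Rarg and Rxra, and the synthesis enzyme Aldh1a2. All 9 were present in the single-cell table and 8 in the bulk table, from which Cyp26b1 was missing.

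Retinoic acid is made from vitamin A by way of retinaldehyde, and the last oxidation is carried out by the ALDH1A enzymes. In the nucleus it binds RAR receptors, which sit on DNA as pairs with an RXR receptor and hold co-repressors or co-activators depending on the ligand. CRABP proteins carry the acid in the cytoplasm and CYP26 enzymes oxidise it for removal. In the mouse fetal ovary the acid is known as a signal linked to the start of meiosis and to Stra8, whereas in the fetal testis CYP26B1 of the somatic cells removes it.

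The cells were the hybrid female 129S1/SvImJ, CAST/EiJ mouse XRep line, in which the 129S1/SvImJ X carries GFP (XGFP) and a Tsix truncation, the CAST/EiJ X carries tdTomato (XTomato), and doxycycline drives Prdm1, Prdm14 and Tfap2c in every cell of the line. Bulk libraries came from unsorted embryonic stem cells (ESC), from unsorted epiblast-like cells (EpiLC) after a first step of 48 h and a further 48 h, and from primordial germ cell-like cells (PGCLC) after 5 days with 1.5 µg/ml doxycycline, sorted as CD61+, SSEA1+, XTomato+ and either XGFP+ or XGFP-. Each of these 4 groups had 4 libraries. According to the methods the 4 libraries of a group are technical replicates of a pair of clones, so that p-values measure the spread among these libraries and are too small for a statement about clones. Single cells came from reconstituted ovaries (rOvary), in which day 5 PGCLCs had been kept for 6 days with somatic cells of the female gonad of stage E13.5 and, by the methods, of the mesonephros, and were sorted as XTomato+. Those from XGFP+ PGCLCs were XGFP+ again (constitutive), and those from XGFP- PGCLCs were sorted as XGFP high, intermediate or low. No retinoic acid is named among the additions to the rOvary.

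The bulk libraries held from 29778299 to 46533858 recovered reads. Of 518 sorted rOvary cells 462 passed the quality limits, namely 88 constitutive and 125 high cells and 249 intermediate or low cells, with 7 more of the intermediate kind, beside 24 single ESCs. The median depth was 354149 reads in constitutive cells and 636623, 645474 and 640902 reads in high, intermediate and low cells. Single ESCs were deeper, with a median of 1103780 reads, and were on neither flow cell lane 2 nor lane 3, which held the rOvary cells. All constitutive cells were on flow cell lane 2, where only 14 to 16 kept cells of each of the other rOvary populations were. The 10 empty wells held at most 242 reads. The naive list of 6 markers summed to at least 127500 normalized counts in every ESC library and at most 7018 in EpiLCs, the EpiLC list of 4 to at least 51890 in EpiLCs and at most 4115 in ESCs, and the germ cell list of 8 to between 35060 and 41500 in PGCLCs against at most 12330 in ESCs. The germ cell sum was led by Kit in PGCLCs and includes Prdm1 and Tfap2c, which doxycycline also drives. Of the 8 germ cell markers, only Dazl had a lower mean in XGFP- PGCLCs than in ESCs, 348 against 579. In XGFP+ PGCLCs Dazl had a mean of 4792. Ddx4 had means of 224 in XGFP- and 461 in XGFP+ PGCLCs, 179 in ESCs and 532 in EpiLCs. The naive list summed to 24250 to 51690 in PGCLC libraries. In single cells Dazl, a defining germ cell marker, was found in 81.8% to 98.4% of the cells of each rOvary population. Levels in single cells are given as RPM, the reads of a gene scaled to 1000000 reads. Markers of stroma reached 41150 RPM in 1 intermediate and 24360 in 1 low cell, while the median cell of each rOvary population was at 0. Results of Cyp26a1, Cyp26b1, Rarb, Crabp1 and Stra8 in single cells are therefore also given for cells above a Dazl limit. Those of the other members are for all kept cells only.

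A direct repeat of the RAR recognition motif stood in the promoter window of a pair of members, the receptor gene Rarb and the turnover gene Cyp26a1. The windows are those of RefSeq on GRCm38.p6, from 250 bases before to 50 after each start. They were searched on both strands for the motif AGGTCA or one of its variants (AGTTCA as well as GGTTCA as well as GGGTCA) followed by another of these after 5 bases (DR5) or 2 bases (DR2). A DR5 was found in 32 of 32851 windows (0.0974%) and a DR2 in 88 (0.268%). Of the members 8 had a window, 13 windows in all, and Crabp2 had none. Among them and the 25 other retinoid genes with a window, only Rarb and Cyp26a1 held a DR5 and none held a DR2. In bulk XGFP- PGCLCs against EpiLCs one of these genes, Rarb, was higher and the other lower. The 80 bases before each start are shown on the gene's strand, with the DR5 in capitals.
Rarb: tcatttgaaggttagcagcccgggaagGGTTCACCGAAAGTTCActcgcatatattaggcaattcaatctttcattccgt
Cyp26a1: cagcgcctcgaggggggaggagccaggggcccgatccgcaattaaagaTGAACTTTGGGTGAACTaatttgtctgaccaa
The Rarb stretch is chr14:16575477-16575556 on the minus strand, and its DR5 runs from -53 to -37 relative to the start and reads in the direction of the gene. This start lies inside the annotated Rarb gene, which on the minus strand begins at 16819156. Counts of Rarb cover the whole gene, so reads from this start cannot be told apart from others. The Cyp26a1 stretch is chr19:37697728-37697807 on the plus strand. Its DR5 runs from -32 to -16 and reads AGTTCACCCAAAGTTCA on the opposite strand. A match describes these letters only, and binding was not measured.

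The RAR receptors differed in level between ESCs, EpiLCs and PGCLCs, each in its own way. Rarg was highest in EpiLCs and fell to its lowest level in XGFP- PGCLCs, Rarb was nearly absent from ESCs and highest in XGFP- PGCLCs, and Rara moved least. The tests were made with limma on log2(normalized count + 1), with Benjamini-Hochberg adjustment over 16281 genes and a false discovery rate (FDR) limit of 0.001. Fold changes on this scale understate those of genes with few reads, and in bulk RNA fewer cells of a type and less RNA per cell cannot be told apart.

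Rarg (chr15:102234938-102257517, minus strand), 1 of the 3 RAR receptors, was measured at 686, 550, 920 and 997 normalized counts in the 4 ESC libraries and at 2413, 2272, 2344 and 2240 in EpiLCs. It stood at 847, 864, 644 and 734 in XGFP+ PGCLCs and at 241, 251, 278 and 234 in XGFP- PGCLCs. The EpiLC libraries lay above all others and the XGFP- libraries below all others, while ESC and XGFP+ libraries overlapped. Rarg rose by 1.59 ± 0.14 on the log2 scale (SE; FDR 1.1e-08, limma) from ESC to EpiLC, which is 3.02-fold. In XGFP- PGCLCs it was lower than in EpiLCs (log2 change -3.20 ± 0.14, FDR 3.51e-13, limma) and lower than in XGFP+ PGCLCs (-1.61 ± 0.14, FDR 5.46e-08, limma), the latter a 3.06-fold difference. Between XGFP+ PGCLCs and ESCs the interval of the log2 change ran from -0.278 to 0.277 (FDR 0.999, limma).

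Rarb (chr14:16430839-16819156, minus strand), the receptor gene whose promoter stretch is shown above, was listed at 1.12, 0.988, 0 and 1.13 normalized counts in ESCs, that is at most 1 read a library. It was at 8.71, 4.94, 8.94 and 6.91 in EpiLCs and at 12.7, 16.3, 13.4 and 6.27 in XGFP+ PGCLCs. In XGFP- PGCLCs it reached 66.7, 66, 73.1 and 52.6, above every other library. The XGFP- value exceeded the XGFP+ value by 2.38 ± 0.33 on the log2 scale (5.19-fold, FDR 1.09e-05, limma) and the EpiLC value by 2.99 ± 0.33 (FDR 1.28e-07, limma). From ESC to EpiLC Rarb also rose, and with 3 reads in all ESC libraries together the ratio of summed normalized counts was 9.10, with a 95% counting interval from 2.85 to 46.5. The same ratio of XGFP- PGCLCs to ESCs was 79.7 (27 to 389). The change from EpiLC to XGFP+ PGCLC did not pass (0.61 ± 0.33, FDR 0.0999, limma). Rarb passed the filter, a mean above 10 over the 16 libraries, mainly through the group where it was high. Its exons overlap Top2b and Gm48162 on the opposite strand, and whether the counting used strand is not given in the sources used here. Top2b was at 3475 to 4222 in ESC, 5450 to 7233 in EpiLC, 2296 to 2762 in XGFP+ and 2172 to 2500 in XGFP- libraries, and the part of opposite-strand reads was not tested. Beside this rise, the endoderm markers in the table (2 of 5) summed to 97.9 to 178.5 in XGFP- and 24.2 to 37.3 in XGFP+ libraries, and those of endothelium and blood (2 of 6) to 149.5 to 233.7 and 60.1 to 69.9. Only Dab2 and Cdh5 were higher in XGFP- libraries, whereas Foxa2 had a mean of 12 in XGFP- and 11.8 in XGFP+ and Kdr of 4.92 and 16.4. Their part in the Rarb difference was not tested.

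Rara (chr11:98927818-98974942, plus strand), the third RAR, stayed between 606 and 1108 normalized counts in all 16 libraries. Its means were 765 ± 35 in ESCs, 679 ± 95 in EpiLCs, 729 ± 94 for XGFP+ PGCLCs and 967 ± 125 for XGFP- PGCLCs (SD, n = 4). It was higher in XGFP- PGCLCs than in EpiLCs by 0.51 ± 0.11 on the log2 scale (1.43-fold, FDR 0.000323, limma), although 1 EpiLC library at 813.5 reached the lowest XGFP- library at 813.2. This call did not hold in every fit: over 25 alternatives the limma, edgeR and DESeq2 FDR ran from 2.31e-05 to 0.00262. Between XGFP- and XGFP+ PGCLCs the change of 0.41 ± 0.11 was not called (FDR 0.00481, limma). With the replicate number as a block among the PGCLC libraries alone, a fit added after seeing the data, the same change was 0.41 ± 0.06 with FDR 6.32e-05 (limma), within a range of 6.32e-05 to 0.0219 over 26 alternatives, and Rara was higher in XGFP- in 4 of 4 same-numbered pairs.

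Rxra (chr2:27676440-27762957, plus strand), the partner receptor, was at 781, 696, 905 and 1011 in ESCs and 738, 808, 901 and 959 in EpiLCs. It was at 440, 437, 486 and 392 in XGFP+ and at 476, 528, 472 and 568 in XGFP- PGCLCs. Every PGCLC library lay below every ESC and EpiLC library, and the members of each of these pairs of groups overlapped. Relative to EpiLC, Rxra fell by 0.95 ± 0.11 on the log2 scale in XGFP+ (FDR 3.94e-07, limma) and fell by 0.73 ± 0.11 in XGFP- PGCLCs (FDR 9.14e-06, limma).

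Levels of different genes can be set side by side only per length, here as normalized counts per kb of all annotated exons, a length that counts isoforms the cells may not use. On that scale Rara and Rarg were at 175 ± 8 and 185 ± 48 in ESCs and at 167 ± 22 and 181 ± 24 in XGFP+ PGCLCs (SD, n = 4). In EpiLCs Rarg was at 544 ± 18 against 155 ± 22 for Rara. In XGFP- PGCLCs the order was the other way round, with Rara at 222 ± 29 and Rarg at 58.9 ± 4.5. Rarb reached only 12.3 ± 1.6 where it was highest. Rara and Rarg thus lay within their spread of each other in ESCs and XGFP+ PGCLCs, and apart in EpiLCs and XGFP- PGCLCs.

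**Figure D1:**
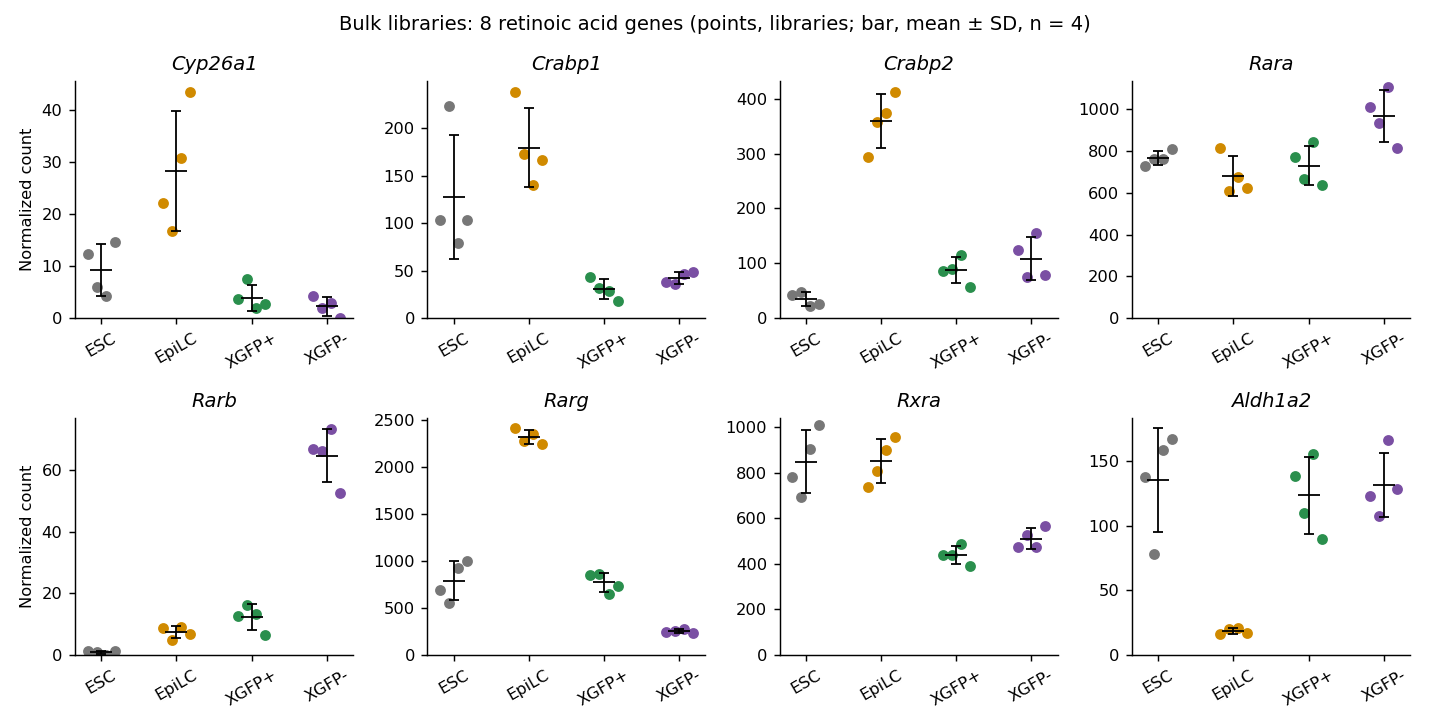
Normalized counts of the 8 members in the bulk table (vertical axis, a scale of its own for each gene, from 0) in the 4 groups, with 1 point per library and the mean ± SD (n = 4) as bars. Rarg was highest in EpiLCs and lowest in XGFP- PGCLCs, Rarb was highest in XGFP- PGCLCs with a lowest library of 52.6, and Aldh1a2 was at most 20.9 in EpiLCs and at least 78.1 elsewhere.

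Crabp1, Crabp2 and Cyp26a1 were lower in both PGCLC groups than in EpiLCs, and Aldh1a2 was higher. From ESC to EpiLC Crabp2 rose and Aldh1a2 fell, while Crabp1 and Cyp26a1 did not pass the test. Crabp2 (chr3:87948666-87953376, plus strand), which brings retinoic acid to the receptors in the nucleus, was measured at 41.5, 48.4, 22.1 and 24.9 normalized counts in ESCs and at 294, 357, 374 and 413 in EpiLCs. It was at 85.2, 90.1, 115.8 and 57.3 in XGFP+ and at 125, 75.2, 156 and 78.3 in XGFP- PGCLCs. ESC libraries were the lowest and EpiLC libraries the highest, with no overlap with PGCLCs, whose groups overlapped. The rise from ESC to EpiLC was 3.42 ± 0.27 on the log2 scale (10.7-fold, FDR 2.4e-09, limma). The level then fell by 2.06 ± 0.27 in XGFP+ (FDR 1.63e-06, limma) and fell by 1.77 ± 0.27 in XGFP- PGCLCs (FDR 9.08e-06, limma).

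Crabp1 (chr9:54764748-54773110, plus strand), the other cytoplasmic carrier, was at 103.3, 223, 78.9 and 102.9 in ESCs and at 238, 173, 140 and 166 in EpiLCs, groups that overlapped (FDR 0.08, limma). It was at 43.5, 31.3, 28.7 and 17.9 in XGFP+ and at 38.1, 35.6, 46.2 and 48.4 in XGFP- PGCLCs. All PGCLC libraries were below all ESC and EpiLC libraries. Against EpiLC it fell by 2.56 ± 0.29 on the log2 scale in XGFP+ (FDR 1.89e-07, limma) and fell by 2.05 ± 0.29 in XGFP- PGCLCs (FDR 2.85e-06, limma).

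Cyp26a1 (chr19:37697798-37701536, plus strand), the enzyme that clears retinoic acid and a known target of the receptors, was low throughout, with a mean of 11 over the 16 libraries and thus just inside the filter. It was at 12.3, 5.93, 4.21 and 14.7 in ESCs, at 22.2, 16.8, 30.8 and 43.5 in EpiLCs, at 3.63, 7.51, 1.91 and 2.69 in XGFP+ and at 4.33, 2.03, 2.89 and 0 in XGFP- PGCLCs. Only the EpiLC libraries stood clear of the others. The change from ESC to EpiLC was not called (1.57 ± 0.51, FDR 0.0114, limma). From EpiLC it fell by 2.61 ± 0.51 in XGFP+ (FDR 0.000152, limma) and fell by 3.30 ± 0.51 in XGFP- PGCLCs (FDR 1.02e-05, limma). Of the mesoderm markers 3 of 4 were in the table, and they summed to 2400 to 5676 in the EpiLC libraries against at most 590.4 in any other, led by Eomes, and their part in the EpiLC levels of Cyp26a1 and the carriers was not tested. The PGCLC levels rest on 15 reads over the XGFP+ and 10 reads over the XGFP- libraries.

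Aldh1a2 (chr9:71215789-71296243, plus strand), which makes retinoic acid from retinaldehyde, was at 138.1, 78.1, 159 and 167 in ESCs and at 15.8, 19.8, 20.9 and 16.8 in EpiLCs. It was at 138.7, 110.1, 156 and 89.6 in XGFP+ and at 123.1, 107.7, 166 and 128.8 in XGFP- PGCLCs. The EpiLC libraries were below all others and the other groups overlapped. It fell by 2.77 ± 0.23 on the log2 scale from ESC to EpiLC (FDR 3.88e-09, limma) and was higher than in EpiLCs by 2.67 ± 0.23 in XGFP+ (FDR 5.12e-09, limma) and by 2.77 ± 0.23 in XGFP- PGCLCs (FDR 2.36e-09, limma). The XGFP- and XGFP+ groups differed by 0.10, with an interval from -0.346 to 0.55.

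Read as counts, the members changed about as often as other genes in some comparisons. From ESC to EpiLC 4 of the 8 tested members were called, 3 higher and 1 lower, beside 47.8% of all genes, 24.9% higher and 22.9% lower. The XGFP+ PGCLC against EpiLC comparison called 6, 1 higher and 5 lower (57.3% of all genes, 27.8% higher and 29.5% lower), and the XGFP- PGCLC against EpiLC comparison called all 8, 3 higher and 5 lower (61.9% of all genes, 29.9% higher and 31.9% lower). Between XGFP- and XGFP+ PGCLCs 2 of 8 were called, Rarb higher and Rarg lower, beside 23.8% of all genes, 11.3% higher and 12.5% lower. Against ESC, 4 were called in XGFP+ PGCLCs, Crabp2 and Rarb higher and Crabp1 and Rxra lower, the call of Crabp2 being lost without any of 3 single libraries (49.9% of all genes, 25% higher and 24.9% lower). In XGFP- PGCLCs 5 were called, the same 4 and Rarg, which was lower (59.4% of all genes, 29.8% higher and 29.6% lower). The comparisons share their EpiLC or ESC libraries. The median log2 change of the tested members was 1.08 from ESC to EpiLC, -1.27 and -1.25 from EpiLC to XGFP+ and XGFP- PGCLCs, and 0.25 between the PGCLC groups, with all genes between -0.03 and 0.01. Since Cyp26a1 and Rarb passed the filter mainly through their high group, these counts do not set the members apart.

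**Figure D2:**
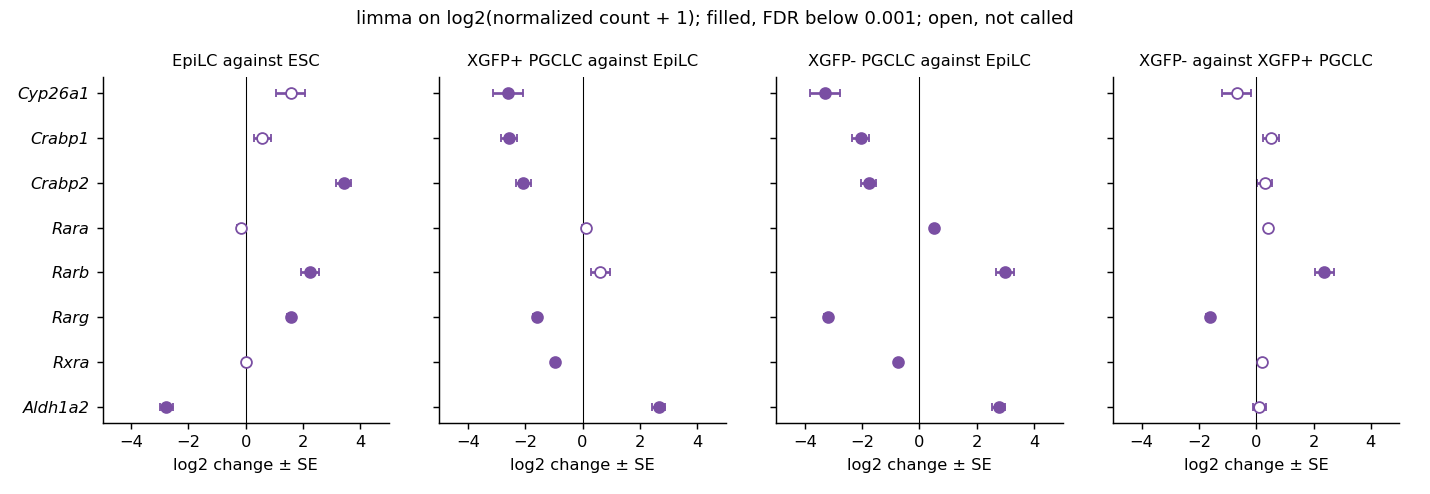
Log2 change ± SE (horizontal axis, limma on log2(normalized count + 1), 4 libraries a group) of the 8 members in 4 comparisons. Filled points passed an FDR of 0.001 and open points did not. Crabp1, Crabp2, Cyp26a1, Rarg and Rxra lay on the lower side in both PGCLC groups against EpiLCs, and Rarb (2.38) and Rarg (-1.61) were called between the PGCLC groups.

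For each member the most similar profiles over the 16 libraries were looked up among 11598 genes with a mean above 100, as Pearson's r of the log2 values. The profile of Rarb was closest to Rgs16 (r = 0.986) and Ypel3 (0.983), that of Rarg to Sept3 (0.983) and Car2 (0.98), and that of Aldh1a2 to Oplah and Tyk2 (both 0.984). Rxra was closest to Sec61a1 (0.977) and Tmem208 (0.968), Crabp2 to Snap47 and Slc16a10 (both 0.966), and Crabp1 to Pimreg (0.965) and Cnpy2 (0.962). Cyp26a1, at its low counts, was closest to Egfr (0.913) and Fgfbp1 (0.908), and Rara, which varied least, to Zfp740 (0.884) and Prkcsh (0.876). The points share 4 groups and are a description.

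Of 35 further retinoid genes 27 were tested. From ESC to EpiLC 17 were called, 6 higher and 11 lower, beside 47.8% of all genes. Of the 10 tested genes of uptake and synthesis 5 were called higher and 2 lower, beside 24.9% and 22.9% of all genes. That list also holds genes that reduce retinaldehyde, such as Dhrs4, so these counts give no direction of synthesis. Rxrg, the third RXR, was listed at 0 in all ESC libraries and at 484 ± 176 in EpiLCs (SD, n = 4), at least 600.7-fold higher against a floor of 3 reads over the ESC libraries. Dhrs4, a retinaldehyde reductase, went from 195 ± 35 to 461 ± 20 (log2 change 1.26 ± 0.12, FDR 3.65e-08, limma). Tgm2, a transglutaminase induced by retinoic acid in many cells, was lower in EpiLCs (51.4 ± 9.5 against 1852 ± 858), as were Meis2 (96.5 ± 34.1 against 485.5 ± 86.7), a homeobox gene, and the co-activator Ncoa3 (3477 ± 483 against 7623 ± 928).

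In PGCLCs against EpiLCs 19 of the 27 were called in XGFP+ (12 higher, 7 lower) and 22 in XGFP- cells (14 higher, 8 lower), beside 57.3% and 61.9% of all genes. All 6 coregulators were called higher in both, as were 27.8% and 29.9% of all genes. Nrip1, a ligand-dependent corepressor, was at 518 ± 77 in EpiLCs, at 2189 ± 219 in XGFP+ cells and at 3376 ± 114.6 in XGFP- cells, and Ncoa2, a co-activator, at 2168 ± 231, 5182 ± 248 and 7959 ± 604. Lrat, which esterifies retinol for storage, was at 5.70 ± 2.35 in EpiLCs and rose to 379 ± 52 in the XGFP+ and to 919 ± 64 in the XGFP- libraries, a log2 change of 7.16 ± 0.24 in the latter (FDR 1.12e-14, limma). Meis2 was higher again, by 2.64 ± 0.24 in XGFP+ and 2.32 ± 0.24 in XGFP- PGCLCs. Rxrg dropped to 1.68 ± 1.31 and 5.54 ± 3.29, and Rdh11, a retinaldehyde reductase, fell by 1.91 ± 0.12 on the log2 scale in XGFP+ PGCLCs (FDR 4.5e-11, limma).

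Between XGFP- and XGFP+ PGCLCs 7 of the 27 were called, 5 higher and 2 lower, a share close to the 23.8% of all genes. Dhrs4 was higher (774 ± 99 against 261 ± 28, log2 change 1.56 ± 0.12, FDR 1.24e-08, limma), as were Lrat (1.29 ± 0.24, FDR 0.000269, limma), Nrip1 (0.63 ± 0.10), Ncoa2 (0.62 ± 0.07) and Rec8, a meiotic cohesin subunit (614 ± 58 against 359 ± 25). The co-activator Ncoa1 was lower (519 ± 54 against 893 ± 55). The seventh, named because a single call remained, was Gbx2, a homeobox gene (14.5 ± 4.7 against 55.9 ± 8.6). With the replicate number as a block among the PGCLC libraries alone 11 of the 27 were called, beside 32.1% of all genes in that fit. Against ESC, 11 were called in XGFP+ (5 higher, 6 lower) and 18 in XGFP- PGCLCs (9 higher, 9 lower), beside 49.9% and 59.4% of all genes. In both, Lrat was higher (379 ± 52 and 919 ± 64 against 3.97 ± 1.71) and Tgm2 lower. In XGFP+ PGCLCs the further named genes were Fabp5, a fatty acid binding protein that can also carry retinoic acid (653 ± 67 against 1961 ± 223), Rdh11 (983 ± 135.2 against 2747 ± 416) and Ncoa2. In XGFP- PGCLCs they were Rxrg, at least 6.88-fold higher against 3 reads over the ESC libraries, Dhrs4, Ncoa2 and Nrip1.

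**Figure D3:**
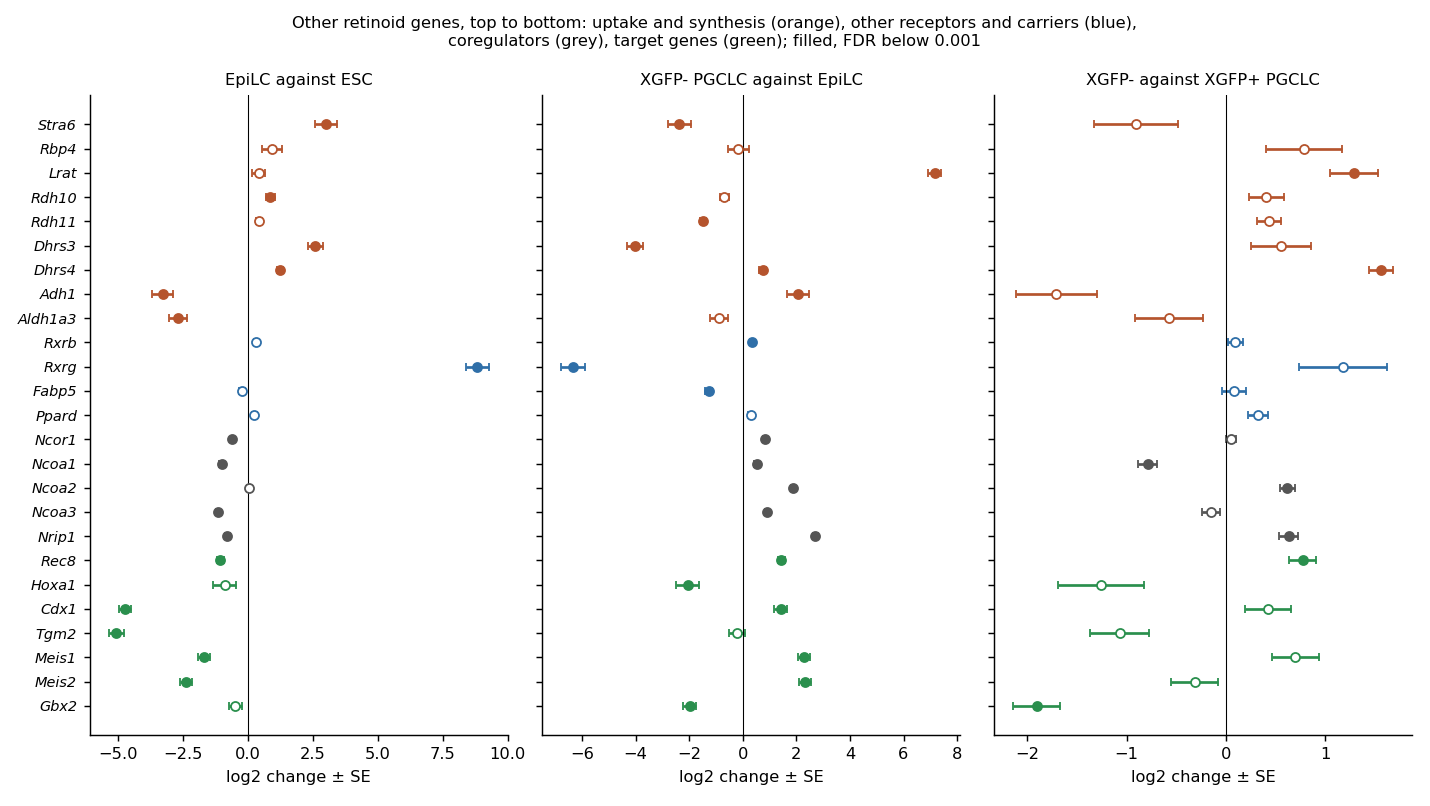
Log2 change ± SE (horizontal axis, a range of its own in each panel) of 25 of the 27 tested retinoid genes that are not among the 9, in 3 comparisons, limma on 4 libraries a group. Filled points passed an FDR of 0.001. The 5 coregulators shown lie to the right in XGFP- PGCLCs against EpiLCs, where Lrat stands at 7.16 and Rxrg at -6.35.

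In the rOvary each sorted population counts as 1 sample, so that values carry no test, and intervals cover counting error only. Reads were not tagged by molecule, so the intervals of read sums are narrower than those of molecules would be. Cyp26a1 and Rarb were found in more cells, and with more reads, in the low and intermediate than in the high and constitutive cells. Of the 9 members 8 were found in at least 10% of the constitutive and of the high cells, Cyp26b1 being below, and all 9 in at least 10% of the intermediate and of the low cells. With at least 5 reads asked for, these counts were 7 in constitutive, 8 in high, 7 in intermediate and 8 in low cells. The share of all genes that reached this limit was not computed, so the counts do not set the members or the populations apart. The constitutive cells differ from the others in PGCLC source and in flow cell lane, which cannot be told apart except in the few other cells on lane 2.

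Cyp26a1 had a read in 64 low cells (52.9%, exact binomial 95% interval 43.6% to 62%), 51 intermediate (39.8%, 31.3% to 48.9%), 27 high (21.6%, 14.7% to 29.9%) and 29 constitutive cells (33%, 23.3% to 43.8%). The low and high intervals did not overlap, nor did those of intermediate and high cells, whereas the interval of constitutive cells overlapped with those of all other populations. The pooled level was 252.5 RPM in low (exact Poisson interval 249.0 to 256), 149 in intermediate (147 to 152), 23.7 in high (22.7 to 24.8) and 60.3 in constitutive cells (57.7 to 63.1). A few cells held much of this: the top 5 cells carried 53.4% of the low, 46.2% of the intermediate, 61.5% of the high and 72.1% of the constitutive reads. The median among cells with a read was 171 and 202 RPM in low and intermediate cells and 51.7 and 40.7 in high and constitutive cells. No read was found in 24 ESCs, which allows a share of cells with a read of up to 12.5% by a limit of 3 cells and of up to 14.25% by the exact interval.

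With every cell thinned to 320000 reads, which left out 25 constitutive, 4 high, 4 intermediate and 8 low cells, the shares of Cyp26a1 were 51.3% in low, 40.3% in intermediate, 21.5% in high and 27% in constitutive cells. In cells above the Dazl limit they were 58.2%, 44%, 22% and 34.2%, at 310.0, 167, 24.6 and 68 RPM. On lane 2 alone they were 53.3% of 15 low, 43.8% of 16 intermediate and 21.4% of 14 high cells, at 317, 220.3 and 23.4 RPM, against the same 33% and 60.3 in constitutive cells. A single cell held 73.9% of the low, 56.9% of the intermediate and 89.4% of the high reads on lane 2, and without that cell of each population the lane 2 levels were 90.2, 103.1, 2.72 and, for constitutive cells, 41.2 RPM, with intermediate above low cells. The order of the shares, low, intermediate, constitutive, high, was the same in these 3 settings, but on lane 2 the intervals of the shares overlapped.

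Rarb followed the same order by share. It had a read in 88 low cells (72.7%, 63.9% to 80.4%), 67 intermediate (52.3%, 43.3% to 61.2%), 42 constitutive (47.7%, 37.0% to 58.7%) and 51 high cells (40.8%, 32.1% to 50.0%). The interval of low cells lay above the others, which overlapped each other. The pooled level was 67.1 RPM in low (65.3 to 68.9), 35.7 in intermediate (34.4 to 37.0), 26.6 in constitutive (24.8 to 28.5) and 14.9 in high cells (14.1 to 15.8), and the top 5 cells carried only 23.0% of the low reads. Thinned shares were 70.8%, 50.8%, 47.6% and 39.7%. In cells above the Dazl limit the shares were 76.9% in low, 55.2% in intermediate, 46% in constitutive and 39.8% in high cells. Their levels there were 59.3, 36.2, 18 and 15.35 RPM. On lane 2 they were 73.3% of 15 low, 50% of 16 intermediate and 42.9% of 14 high cells, but the levels there were closer, 32.3, 19.7 and 15.5 RPM, and constitutive cells at 26.6 lay between low and intermediate cells. Without the cell with the most reads the lane 2 levels were 16.4 in low, 14.7 in intermediate and 7.11 in high cells against 23 in constitutive cells. In ESCs no read was found in 24 cells, as for Cyp26a1.

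**Figure D4:**
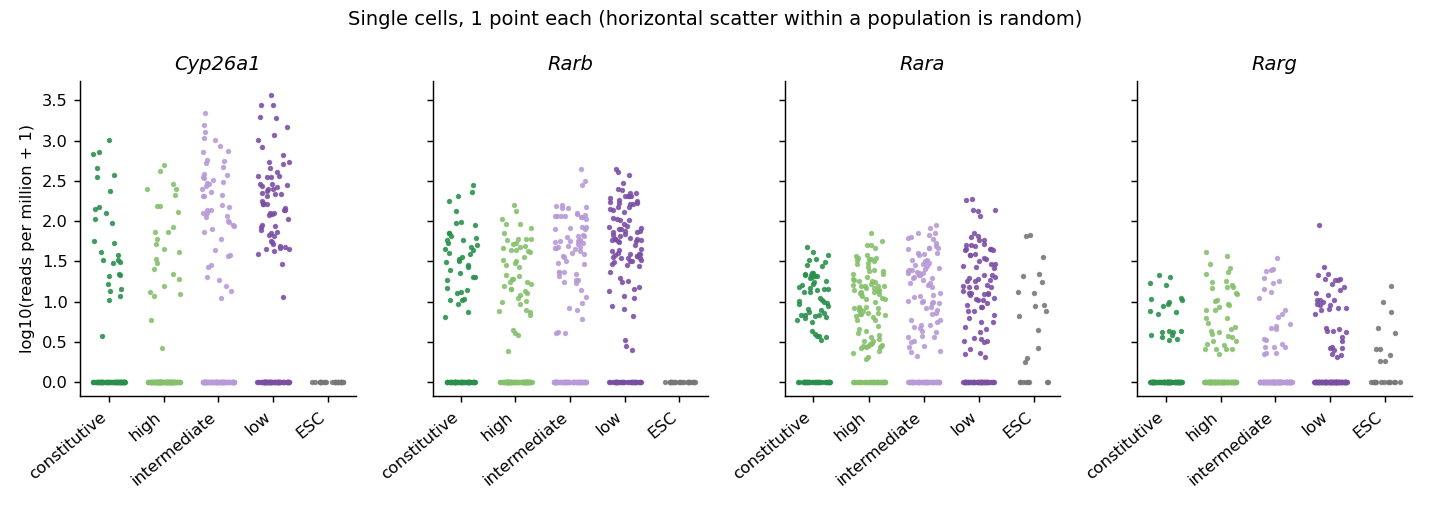
RPM of Cyp26a1, Rarb, Rara and Rarg in single cells, as log10(value + 1) on the vertical axis, with 1 point per cell for the 4 rOvary populations and ESCs. Cells without a read lie at 0. Cyp26a1 and Rarb have no ESC above 0 and a denser cloud in low cells (64 and 88 cells), while the share of Rara is between 60.2% and 69.6% in all of them.

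Cyp26a1 and Rarb were often found in the same cells. Of the low cells with a Cyp26a1 read 85.9% also had a Rarb read, against 57.9% of those without. In intermediate cells these shares were 76.5% and 36.4%, in high cells 70.4% and 32.7%, and in constitutive cells 58.6% and 42.4%. Dhrs3, a retinaldehyde reductase known to be induced by retinoic acid and named after its values were seen, was found in 75% of the low cells with a Cyp26a1 read and 33.3% of those without, and in 72.6% and 27.3% of the intermediate cells. The median depth of cells with and without a Cyp26a1 read was 671426 and 617552 reads in low cells and 624563 and 647079 in intermediate cells. Other pairs of members also went together in intermediate cells. There Rarb was found in 65.4% of cells with a Rara read and 32% of those without. Crabp2 was found in 56.25% of intermediate cells with a Crabp1 read and 32.8% of those without. In low cells these shares were 74% and 70.45% for Rarb, and 47.5% and 31.7% for Crabp2. No split was made within cells above the Dazl limit. These are counts of cells of 1 sample each.

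Cyp26b1 (chr6:84571414-84593908, minus strand), the turnover enzyme of the somatic gonad, was found in 18 low (14.9%, 9.06% to 22.5%) and 19 intermediate cells (14.8%, 9.18% to 22.2%), but in 4 constitutive (4.55%, 1.25% to 11.2%) and 1 high cell (0.8%, 0.0203% to 4.38%). The intervals of low and intermediate cells lay above that of high cells. 1 of 24 ESCs had a read (4.17%). The level was 6.58 and 5.15 RPM in low and intermediate cells, of which the top 5 cells held 85.4% and 81.8%. In cells above the Dazl limit it was 5.85 and 1.31 RPM, so that cells below the limit held most of the intermediate reads. The 7 stromal markers summed to 758 RPM in intermediate, 2.17 in high and 37.4 in constitutive cells, and low cells fell between intermediate and constitutive cells. At most 1 of the 7 was found in 10% of the cells of any population, and Col3a1 and Tcf21 had no read in high and constitutive cells. The 9 markers of gonadal supporting cells summed to 50.7 RPM in intermediate, 55.3 in low, 17.1 in high and 22 in constitutive cells. Lhx9 had no read in intermediate and low cells, Nr5a1 none in high cells, and Foxl2 and Gata4 none in constitutive cells. Markers of endothelium and blood summed to 72.8 RPM in intermediate, 0.3 in low, 0.351 in high and 0.541 in constitutive cells. Those of endoderm summed to 37.8, 17.5, 4.25 and 8.08 RPM in the same order. The part of these cells in the Cyp26b1 reads was not tested.

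With both lanes together, the other receptors differed less between the populations. Rara had a read in 60.2% of constitutive (49.2% to 70.5%), 69.6% of high (60.7% to 77.5%), 60.9% of intermediate (51.9% to 69.4%) and 63.6% of low cells (54.4% to 72.2%), and in 66.7% of ESCs, all overlapping. Its pooled level was 8.53, 10.2, 14.6 and 20.9 RPM in that order of populations. Rarg was found in 25%, 32%, 20.3% and 32.2% of the cells, at 1.78, 3.27, 1.95 and 3.81 RPM, and in 41.7% of ESCs. After thinning, the Rarg shares were 12.7%, 25.6%, 16.9% and 30.1%, and 26.1% in ESCs. Rxra was found in 54.5% of constitutive (43.6% to 65.2%), 44% of high, 34.4% of intermediate and 33.1% of low cells (24.8% to 42.2%), the intervals of constitutive and low cells being apart, also at 54% and 29.2% after thinning. On lane 2 Rara was found in 28.6% of 14 high cells (8.39% to 58.1%), 75% of 16 intermediate and 60% of 15 low cells. On lane 3 the Rara share of high cells was 74.8%. Rarg was found on lane 2 in 21.4% of high, 25% of intermediate and 6.67% of low cells (0.169% to 32% in low cells). Rxra was found there in 13.3% of the low cells. At least 1 of the 3 RAR genes had a read in 86.4% of constitutive, 86.4% of high, 77.3% of intermediate and 93.4% of low cells.

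The binding proteins and Aldh1a2 were found in all rOvary populations. Crabp1 had a read in 63.6% of constitutive, 69.6% of high, 50% of intermediate and 50.4% of low cells, with the interval of high cells (60.7% to 77.5%) above those of intermediate (41% to 59%) and low cells (41.2% to 59.6%). It had a read in 91.7% of ESCs, and in 82.6% after thinning. Its level was 28.3, 44.3, 20.5 and 39.7 RPM, and 31.5, 45.7, 20.7 and 29.6 RPM in cells above the Dazl limit. Crabp2 had a read in 48.9%, 40%, 44.5% and 39.7% of the cells in the same order, at 78.3, 46.9, 61.1 and 65.4 RPM, and in 1 of 24 ESCs. Aldh1a2 had a read in 22.7%, 24.8%, 14.1% and 18.2% of the cells, at 8.18, 6.00, 7.75 and 8.60 RPM, and in 6 of 24 ESCs. On lane 2 Aldh1a2 had a read in 1 of 14 high, 0 of 16 intermediate and 1 of 15 low cells, at 0.415, 0 and 0.0969 RPM, below the constitutive cells of that lane. Up to 31.9% of its reads in an rOvary population came from 1 cell. Over the 9 members and 4 rOvary populations, 34 of 36 shares stayed within their unthinned interval after thinning.

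**Figure D5:**
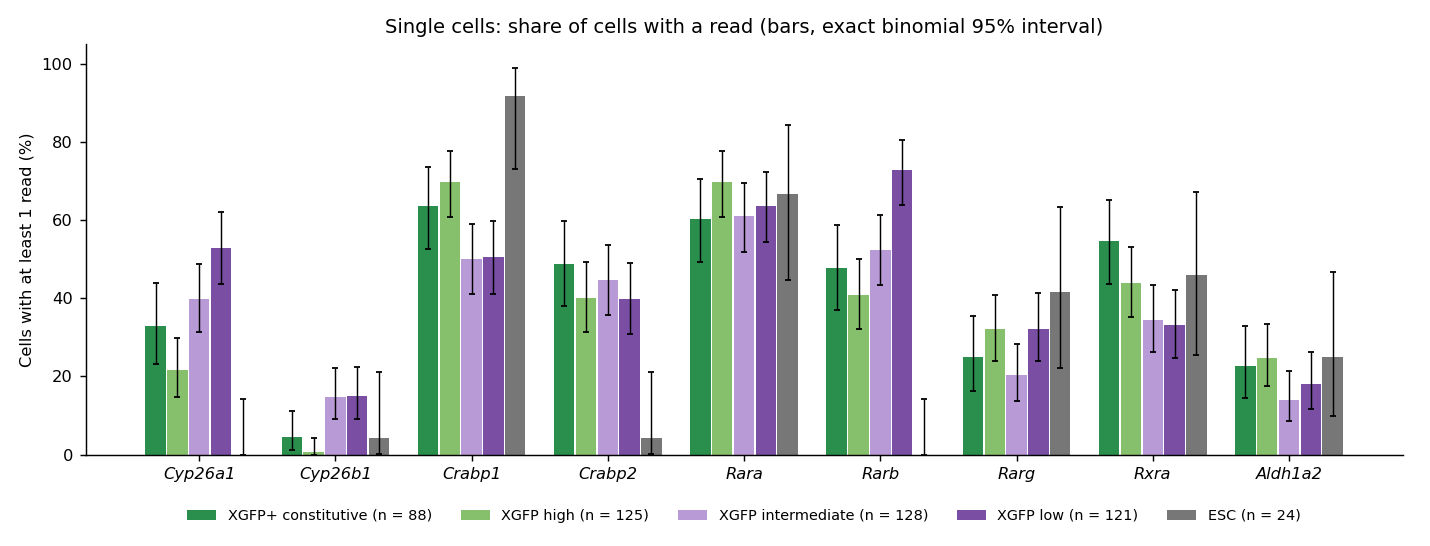
Share of cells with at least 1 read (vertical axis, %) for the 9 members in the 4 rOvary populations and single ESCs, with exact binomial 95% intervals as error bars, which cover counting error only. Cyp26a1, Cyp26b1 and Rarb are above their high-cell share in low cells, with 52.9%, 14.9% and 72.7% against 21.6%, 0.8% and 40.8%.

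Beside the members, Stra8, the gene named for its response to retinoic acid, had a read in 88.6% of constitutive, 95.2% of high, 89.8% of intermediate and 81.8% of low cells, and in 12.5% of ESCs. Its level was 1043, 936, 2889 and 2521 RPM in that order and 0.423 in ESCs. In cells above the Dazl limit it was found in 94.7%, 96.6%, 97.4% and 98.9% of the cells. Rec8 was found in 70.5%, 64%, 76.6% and 85.1% of the cells, at 52.8, 32.5, 96.7 and 92.3 RPM. Of the low cells with a Cyp26a1 read 92.2% had a Stra8 read, against 70.2% of those without, and of the high cells 96.3% against 94.9%. No Stra8 read was found in 5 low cells with and 17 without a Cyp26a1 read. With Stra8 in 98.9% of the low cells above the Dazl limit, the low cells without a Stra8 read were mostly below it. No split by Cyp26a1 was made above the limit. Cyp26c1, the third CYP26 gene and a neighbour of Cyp26a1, named after its values were seen, was found in 19% of low, 17.2% of intermediate, 4% of high and 6.82% of constitutive cells and in none of 24 ESCs. Its highest level was 5.58 RPM, in low cells.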

How the data were processed

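The bulk values were deposited by the authors as read counts divided by 1 DESeq2 1.16 size factor per library (a signal, not raw counts), after STAR alignment to mm10 and HTSeq 0.6.1 counting, tools named in the submitters' processing notes. The deposited single-cell values are raw read counts per gene and cell. Of 16335 bulk identifiers 16097 matched a symbol in GENCODE vM21, which also gave gene positions and exon lengths.

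Genes with a mean normalized count above 10 (16281 genes) were tested with limma 3.58.1 on log2(normalized count + 1), all 16 libraries in 1 model. Whole reads were recovered from the bulk values, since 100% of low values were whole multiples, within 0.1, of 1 step per library. They were tested with edgeR 4.0.16 and DESeq2 1.42.0 as alternatives. Per comparison limma called 3873 to 10073 genes, edgeR 3974 to 10184 and DESeq2 5051 to 10789. Between the PGCLC groups DESeq2 called 5051 genes where limma called 3873. These tests were checked on simulated counts with independent libraries and the same spread setting for all genes. The libraries here are technical replicates of clones, so that check gives no error rate for these data. Same-numbered XGFP+ and XGFP- PGCLC libraries deviated together (r = 0.253, 0.135, 0.2 and 0.307), other pairs of groups at most at 0.16 and not in every pair above 0.1, so that the replicate block was read for the PGCLC comparison only.

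A cell was kept if it held 4000 genes or more and 10000 reads or more, of which no more than 5% were mitochondrial. RPM was taken over all reads of a cell or population in the table. Exact 95% intervals cover counting error only. The Dazl limit was a natural-log normalized value above 1.

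All members were named. Of the other retinoid genes, the 6 largest called changes with a mean above 100 were named per comparison, except that some are not reported here. Members and lists were chosen with earlier results of these data known. Allelic tables were not used.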

Additional observations from a re-analysis of the deposited data

Results flagged for a closer look

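Of 32 combinations of member and bulk group, 2 held a library that stood far from the other 3, where chance gives about 1 in 20. Crabp1 was at 223.3 normalized counts in 1 ESC library, with the others between 78.9 and 103.3. Rarb was listed at 0 in 1 ESC library, with the others at 0.988 to 1.13, a difference of a single read.

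The changes from EpiLC to PGCLC differed between XGFP- and XGFP+ cells for a pair of members, by the limma test of the difference itself, in which the shared EpiLC libraries drop out. This is the comparison of XGFP- with XGFP+ PGCLCs given above and not a further result. Rarb passed the filter mainly through its XGFP- libraries. For Rarb the change in XGFP- PGCLCs exceeded that in XGFP+ PGCLCs by 2.377 on the log2 scale (FDR 1.09e-05), and for Rarg the difference was -1.611 (FDR 5.46e-08). The XGFP- and XGFP+ libraries of both genes did not overlap. The interval of the difference was -1.69 to 0.314 for Cyp26a1, -0.05 to 1.07 for Crabp1 and -0.246 to 0.823 for Crabp2.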

How the results depend on the processing

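The number of members called stayed within 1.5 times of the reported one in every comparison and alternative except that a filter at a mean above 50, which removes Cyp26a1 and Rarb, left 1 of 2 calls between XGFP- and XGFP+ PGCLCs. With the replicate block the number of members called was 2 there. The replicate block among the PGCLC libraries alone, added after seeing the data, called 11 further retinoid genes in place of 7 and changed the call of Rara among the members. The block in the model of all 16 libraries changed no call of a member. Leaving out 1 library in turn kept the number of members called between the PGCLC groups at 2 and gave 7 to 8 in XGFP- PGCLCs against EpiLCs and 3 to 4 in XGFP+ PGCLCs against ESCs, and no change of direction among called members.

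The call of Rara in XGFP- PGCLCs against EpiLCs was lost with the compared groups alone (FDR 0.00114), with quantile normalization (0.00262) and without XGFP- library 1 or 3 or EpiLC library 2, 3 or 4 (0.00102 to 0.00188), with a log2 change of 0.44 to 0.60 over all fits without 1 library. That of Crabp2 in XGFP+ PGCLCs against ESCs was lost with the compared groups alone (0.00123) and without XGFP+ library 3 or ESC library 3 or 4 (0.00118 to 0.0013). Cyp26a1 from ESC to EpiLC was called with a pseudocount of 10 (0.00063). The causes were not tested. In single cells the count of members found in at least 10% of cells was 7 to 9 under all alternatives. Of 36 member shares, 16 left their interval when at least 5 reads were asked for. On lane 2 alone 10 of the 27 shares of high, intermediate and low cells did so, the constitutive cells being the same there. Levels without the cell with the most reads were added after seeing the data.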
